A study of Mus musculus with 6 samples.

Results

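The genes described here are the chemokine ligands and chemokine receptors of the mouse, taken by gene symbol from the deposited expression table. They were all rows named Ccl, Cxcl, Ccr or Cxcr with a number, together with Cx3cl1, Xcl1, Xcr1 and the atypical receptors Ackr1 to Ackr4. The receptor Cx3cr1 was not a member. In all, 58 of the 36758 genes in the table were members, 38 ligands and 20 receptors. RNA sequencing was done on 6 libraries of brain RNA from 6-month-old C57BL/6J mice, whose cells the labels call microglia. The 3 vehicle libraries came from mice given water for 16 weeks, and the 3 TMAO libraries from mice given 0.12% trimethylamine N-oxide (TMAO), a gut-derived metabolite, once a day for 16 weeks. The labels name no other treatment or transgene in either group. They mention pooled RNA without saying what was pooled, and do not state whether each library is a separate animal, so p-values here measure spread among these libraries only, and that spread may be technical.

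Chemokines are small secreted proteins that direct the movement of leukocytes, and they are named CC, CXC, CX3C or C after the spacing of their first cysteines. They act on G protein-coupled receptors, while the atypical receptors bind chemokines and remove or transport them without G protein signalling. Many CC and CXC ligands are induced through NF-kB or interferon signalling in activated microglia, astrocytes and endothelium, whereas Cx3cl1 and Cxcl12 are made constitutively in brain.

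Levels are FPKM, that is, fragment numbers corrected for transcript length and for the size of each library. Of the 58 members, 24 reached 1 FPKM in at least 3 of the 6 libraries and were tested. They comprised 20 of the 38 ligands and 4 of the 20 receptors. A further 13 members reached 1 FPKM in at least 1 library only, and 21 stayed under 1 FPKM in every library, of which Ccl26 was listed at 0 throughout. Ccl28 was the last member inside this limit, with its third-highest library at 1.14 FPKM, and Cxcl2 and Cxcl16 lay just outside at 0.973 and 0.940 FPKM. Ccl11, Cxcl1 and Ccr1 passed through the vehicle libraries alone, with all 3 vehicle libraries at or above 1 FPKM and all 3 TMAO libraries under it, so they had to differ. The counts over tested members therefore describe them and support nothing.

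The 6 libraries were mixed brain RNA. Neuron markers (8 genes) summed to 289 to 891 FPKM and oligodendrocyte markers (6 genes) to 352 to 866 FPKM, against 106 to 267 FPKM for 10 microglia markers, so no chemokine level can be assigned to microglia. Vehicle replicate 1 stood apart. Across tested genes its log2 values correlated with the other libraries at 0.804 to 0.896, against 0.959 to 0.986 among the other 5. It had the lowest neuron sum and the highest sums of border macrophage markers (94.0 FPKM, against 5.69 to 23.6 elsewhere), neutrophil markers (121 against 4.37 to 57.8), endothelial markers (252 against 47.9 to 112) and fibroblast markers (107 against 9.86 to 21.1). Not every marker followed its sum. The neuron marker Gad1 was highest in vehicle replicate 1, at 49.1 FPKM against 33.7 to 42.0 FPKM elsewhere. The other neuron markers were lowest there, Slc17a7 at 14.5 FPKM against 151 to 185 FPKM. The endothelial marker Slco1a4 was also lowest there. The log2 differences of the tested members are therefore given with and without vehicle replicate 1.

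Mean levels of the inflammatory chemokines were lower in the TMAO libraries and those of several homeostatic ones higher, but no member passed the test. By limma on log2(FPKM + 1), 0 of the 24 tested members passed an adjusted p of 0.05 over all 14206 genes tested, of which 0% passed, and the smallest adjusted p among members was 0.404. Before adjustment, p was under 0.05 for 9 members lower in TMAO and 2 higher, where 7.22% and 4.84% of all tested genes were so. The 9 were Ccl2, Ccl4, Ccl6, Ccl9, Ccl11, Cxcl1, Cxcl10, Ccr1 and Ackr3, and the 2 were Ccl21b and Ccl25. Among the 9, Ccl11, Cxcl1 and Ccr1 had passed the filter through vehicle alone. A lower mean in TMAO was found in 17 of 24 members, and in 53.2% of all tested genes. The median log2 difference was -1.03 over the members and -0.027 over all tested genes, and without vehicle replicate 1 it was -0.54 and -0.022. Vehicle replicate 1 was the highest of the 6 libraries in 14 of the 24 members and the lowest in 8, against 41.8% and 35.9% of all tested genes. Leaving out vehicle replicate 1 gave 13 members at p under 0.05 in place of 11, with 17.2% of all tested genes so. Leaving out vehicle replicate 2 gave 6 members beside 9.12% of tested genes, and leaving out vehicle replicate 3 gave 16 beside 23.7%. Leaving out TMAO replicate 1, 2 or 3 gave 5, 9 or 4 members beside 5.4%, 5.21% or 3.72% of tested genes. The smallest adjusted p among members over these 6 fits was 0.118, for Cxcl1 without vehicle replicate 1. The marker sums given above differed among the vehicle libraries, and their part in these counts was not tested. In bulk RNA, fewer cells of a type and less RNA per cell cannot be told apart.

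**Figure D1:**
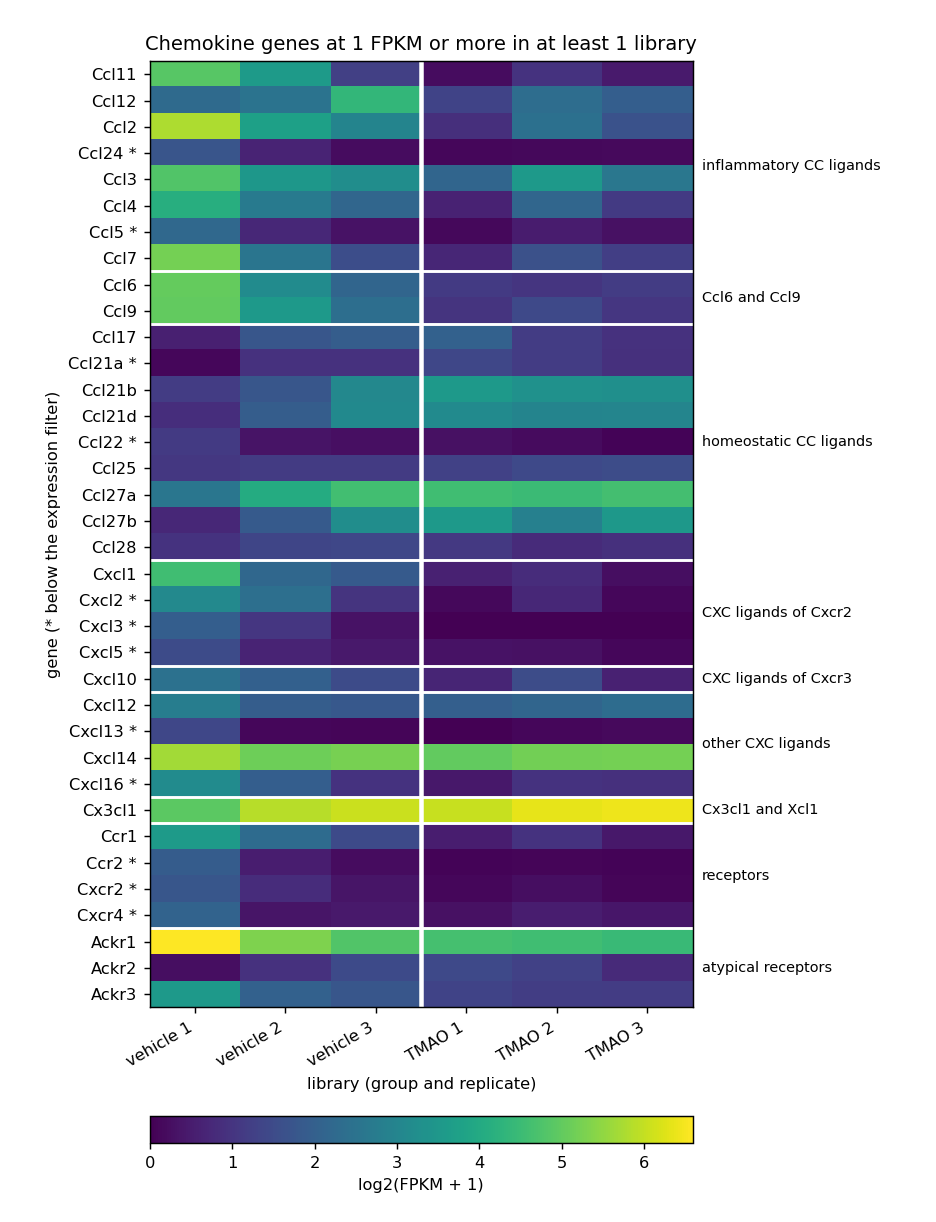
Level of 36 chemokine genes that reached 1 FPKM in at least 1 library, as log2(FPKM + 1), with libraries in columns and genes in rows grouped by role; genes marked with a star were below the expression filter. The inflammatory CC ligands and the ligands of Cxcr2 are highest in vehicle replicate 1 except for Ccl12, while Ccl21b, Ccl21d, Ccl27a, Ccl27b and Cx3cl1 are lowest there.

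The promoters of 3 neighbouring neutrophil-attracting ligands, Cxcl1, Cxcl2 and Cxcl3, and of the interferon-inducible ligand Cxcl10 are shown first because these genes stood lower in TMAO and because their upstream sequences hold the letters that NF-kB and interferon response factors are known to read. The sequences are the 250 bases before the RefSeq start site in GRCm38.p6, 5′ to 3′ on the gene's own strand. Capitals mark matches on either strand to the NF-kB consensus, to the interferon response motif (GAAA, any 2 bases, GAAA) and to the AP-1 motif TGANTCA. They lie at chr5:90890995-90891244 (Cxcl1, plus strand), chr5:90903649-90903898 (Cxcl2, plus strand), chr5:90785851-90786100 (Cxcl3, plus strand) and chr5:92348890-92349139 (Cxcl10, minus strand).
Cxcl1: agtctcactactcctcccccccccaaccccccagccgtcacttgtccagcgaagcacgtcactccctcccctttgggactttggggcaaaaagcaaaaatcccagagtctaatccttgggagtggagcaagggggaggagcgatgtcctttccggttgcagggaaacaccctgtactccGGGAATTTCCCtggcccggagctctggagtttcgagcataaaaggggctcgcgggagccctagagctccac
Cxcl2: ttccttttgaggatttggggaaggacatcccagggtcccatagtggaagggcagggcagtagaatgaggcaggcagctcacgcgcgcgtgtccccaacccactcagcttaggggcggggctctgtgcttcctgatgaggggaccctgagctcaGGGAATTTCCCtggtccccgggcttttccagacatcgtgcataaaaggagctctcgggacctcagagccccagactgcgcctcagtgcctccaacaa
Cxcl3: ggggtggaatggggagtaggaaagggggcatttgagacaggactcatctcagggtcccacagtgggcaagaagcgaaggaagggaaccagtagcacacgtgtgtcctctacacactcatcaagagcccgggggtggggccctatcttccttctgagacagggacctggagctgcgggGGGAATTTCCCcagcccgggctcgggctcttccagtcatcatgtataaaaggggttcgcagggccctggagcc
Cxcl10: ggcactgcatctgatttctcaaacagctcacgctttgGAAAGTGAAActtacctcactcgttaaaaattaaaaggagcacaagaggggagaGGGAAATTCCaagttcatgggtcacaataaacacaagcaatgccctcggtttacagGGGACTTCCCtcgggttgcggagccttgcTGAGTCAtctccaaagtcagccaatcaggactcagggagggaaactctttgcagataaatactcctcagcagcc

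Cxcl1, Cxcl2 and Cxcl3 shared 1 run of letters, GGGAATTTCCC, which matched the NF-kB consensus in both directions as 2 overlapping matches and began at positions -71, -97 and -73 relative to the start site. Cxcl10 had 2 separate NF-kB matches, beginning at positions -159 and -103, 1 interferon response match beginning at -213 and 1 AP-1 match at -74. Over all 32851 windows of this length in the RefSeq table, 3.90% held an NF-kB match, 2.98% an interferon response match and 6.75% an AP-1 match. Among the 29 ligands that reached 1 FPKM in some library, 21 had a window, and NF-kB matches were found in 5 of them, Ccl9 being the fifth. AP-1 matches were found in 4 of the 21 (Ccl9, Cxcl10, Ccl27a and Ccl27b) and interferon response matches in 2 (Cxcl10 and Cxcl14). A gene counted if any of its windows matched, whereas the shares above are per window. Ccl27a had 3 windows and Ccl27b 4, with an AP-1 match in 1 window of each. NF-kB matches also occurred in Ackr2 and in Ccl20, Ccr3 and Ccr6, which stayed under 1 FPKM. The window of Ccl9, at chr11:83578637-83578886 on the minus strand, is shown with its NF-kB and AP-1 matches in capitals.
Ccl9: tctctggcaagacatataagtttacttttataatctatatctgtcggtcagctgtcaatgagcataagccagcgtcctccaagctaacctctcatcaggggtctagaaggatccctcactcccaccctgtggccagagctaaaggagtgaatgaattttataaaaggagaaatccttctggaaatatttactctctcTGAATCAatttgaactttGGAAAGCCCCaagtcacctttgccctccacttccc
The ligands without a window in the table were Ccl2, Ccl4, Ccl5, Ccl7, Ccl11, Ccl24, Cxcl5 and Cxcl16. A match describes letters and is not a binding site.

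Mean levels of all 6 tested inflammatory CC ligands were lower in TMAO, 3 of them without overlap between the groups, where 53.2% of all tested genes had a lower mean and 17.5% were lower without overlap. Ccl11, among these 3, passed the filter through the vehicle libraries alone, so its separation was fixed by the filter. Ccl2, the main attractant of monocytes, stood at 53.4, 12.4 and 6.92 FPKM in vehicle replicates 1, 2 and 3 and at 0.867, 4.43 and 2.16 FPKM in TMAO replicates 1, 2 and 3. Every vehicle library lay above every TMAO library, and the vehicle mean was 9.75 times the TMAO mean, or 3.88 times without vehicle replicate 1. The log2 difference was -2.497 (SE 0.765, n = 3 each, adjusted p = 0.404 by limma); leaving out vehicle replicate 1 gave -1.70.

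Ccl7, a second ligand of Ccr2, stood at 35.8, 4.93 and 1.92 FPKM in vehicle and at 0.639, 2.08 and 1.33 FPKM in TMAO. The groups overlapped, because TMAO replicate 2 lay above vehicle replicate 3. Its log2 difference of -1.92 (SE 0.909) was -0.87 without vehicle replicate 1, which was 10.4 times the mean of the other vehicle libraries.

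Ccl12, a mouse ligand of Ccr2 encoded in the same cluster as Ccl2, had a different pattern. It stood at 3.82, 4.70 and 19.5 FPKM in vehicle and at 1.53, 4.12 and 2.89 FPKM in TMAO. Its highest library was vehicle replicate 3, and vehicle replicate 1, which was highest for Ccl2 and Ccl7, was the lowest of its group. The groups overlapped, and the log2 difference of -1.16 (SE 0.591) was -1.55 without vehicle replicate 1 and -0.50 at its nearest to 0 when 1 library was left out.

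Ccl3 and Ccl4, inflammatory ligands that activated microglia and macrophages release, differed in their overlap. Ccl3 stood at 26.7, 10.3 and 8.37 FPKM in vehicle and at 3.43, 10.7 and 5.09 FPKM in TMAO. TMAO replicate 2 thus lay above vehicle replicates 2 and 3, and the log2 difference of -1.07 (SE 0.519) was -0.59 without vehicle replicate 1. Ccl4 stood at 16.6, 5.42 and 3.51 FPKM in vehicle and at 0.551, 3.48 and 1.16 FPKM in TMAO. Its groups were separate only by the gap between 3.51 and 3.48 FPKM, with a log2 difference of -1.70 (SE 0.607) that was -1.13 without vehicle replicate 1.

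Ccl11, an eosinophil attractant that acts on Ccr3, had the largest log2 difference among the tested members. It stood at 28.6, 11.04 and 1.37 FPKM in vehicle and at 0.166, 0.954 and 0.389 FPKM in TMAO. All vehicle libraries were higher, but vehicle replicate 3 lay much nearer to TMAO than the other vehicle libraries did. The log2 difference was -2.69 (SE 0.884), -1.86 without vehicle replicate 1 and -3.68 at its farthest from 0 when 1 library was left out.

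Below the filter, Ccl5, a ligand of Ccr1, stood at 3.70, 0.673 and 0.249 FPKM in vehicle and at 0.101, 0.408 and 0.217 FPKM in TMAO, with overlap. Ccl24, a further ligand of Ccr3, stood at 2.31, 0.584 and 0.165 FPKM in vehicle and at 0.0789, 0.0934 and 0.126 FPKM in TMAO, without overlap. Ccl8 stayed between 0.0785 and 0.585 FPKM. In TMAO replicate 2 each of the 6 tested inflammatory CC ligands was the highest of its group, a pattern noticed after the values were seen, and replicate 2 was the highest TMAO library in 37.8% of all tested genes.

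Ccl6 and Ccl9, ligands of Ccr1 known from rodents, were near 1 FPKM in every TMAO library. Ccl6 stood at 31.8, 8.12 and 3.41 FPKM in vehicle and at 1.16, 1.03 and 1.27 FPKM in TMAO. Ccl9 stood at 31.2, 10.8 and 4.17 FPKM in vehicle and at 0.997, 1.75 and 1.06 FPKM in TMAO. Both were higher in each vehicle library than in any TMAO library, with means 12.5 and 12.1 times higher in vehicle, or 5.003 and 5.91 times without vehicle replicate 1. The log2 differences were -2.35 (SE 0.690) and -2.48 (SE 0.634), or -1.56 and -1.80 without vehicle replicate 1, and the limma p of 0.00752 for Ccl9 was the smallest of any member.

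All 4 member ligands of Cxcr2, which draw neutrophils, were higher in each vehicle library than in any TMAO library. Over all 34778 genes above 0 in at least 1 library, groups without overlap and lower in TMAO made up 10.5%, and they made up 17.5% of the tested genes. Cxcl1 stood at 22.8, 3.59 and 2.65 FPKM in vehicle and at 0.518, 0.795 and 0.179 FPKM in TMAO. It passed the filter through vehicle alone, so its groups had to be separate. Its log2 difference was -2.32 (SE 0.710, adjusted p = 0.404 by limma); leaving out vehicle replicate 1 gave -1.47.

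Cxcl2, a close relative of Cxcl1, stood at 7.52, 4.30 and 0.973 FPKM in vehicle and at 0.112, 0.666 and 0.0761 FPKM in TMAO. Cxcl3 stood at 2.89, 1.07 and 0.257 FPKM in vehicle, was listed at 0 in TMAO replicates 1 and 3, and stood at 0.0151 FPKM in TMAO replicate 2. Cxcl5 stood at 1.83, 0.574 and 0.377 FPKM in vehicle and at 0.256, 0.224 and 0.0881 FPKM in TMAO. These 3 were below the filter. An exact two-sided permutation test gave each a p of 0.1, the lowest value possible with 3 libraries a group, and its Benjamini-Hochberg value over the 13 members so tested was 0.162 (exact permutation). The coding sequences of Cxcl2 and Cxcl3 are 89.7% identical in the GRCm38 annotation, so the division of their reads is uncertain.

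The neutrophil marker sum had the same order of vehicle libraries as Cxcl1, with 121, 57.8 and 14.2 FPKM there and with 6.47, 7.97 and 4.37 FPKM in TMAO. S100a9 and S100a8 held most of the sum, at 64.8 and 27.9 FPKM in vehicle replicate 1. Of its 8 genes, Camp, Ltf and Ly6g stayed under 1 FPKM in every library. S100a9, S100a8, Retnlg and Mmp8 were lower in TMAO without overlap, but not every marker followed the sum. Ngp stood at 0.0931 FPKM in vehicle replicate 3, below its 0.283 to 0.603 FPKM in TMAO. Ly6g was highest in TMAO replicate 3, at 0.980 FPKM. The order of vehicle libraries was not particular to neutrophil markers. Every other marker list except neurons and T and NK cells had it too, such as microglia (267, 141 and 106 FPKM) and astrocytes (954, 705 and 616 FPKM). The part of the neutrophil markers in the values of the Cxcr2 ligands and of Cxcr2 was not tested.

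Of the interferon-inducible ligands of Cxcr3, only Cxcl10 reached the filter. It stood at 4.47, 3.08 and 1.87 FPKM in vehicle and at 0.609, 1.89 and 0.532 FPKM in TMAO. TMAO replicate 2 reached the level of the lowest vehicle library, so the groups overlapped by a narrow margin. The log2 difference was -1.06 (SE 0.337) with all libraries and -0.83 without vehicle replicate 1. Cxcl9 and Cxcl11 reached at most 0.129 and 0.0546 FPKM, and the 8 T and NK cell markers, cells on which Cxcr3 is known, all stayed under 1 FPKM.

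**Figure D2:**
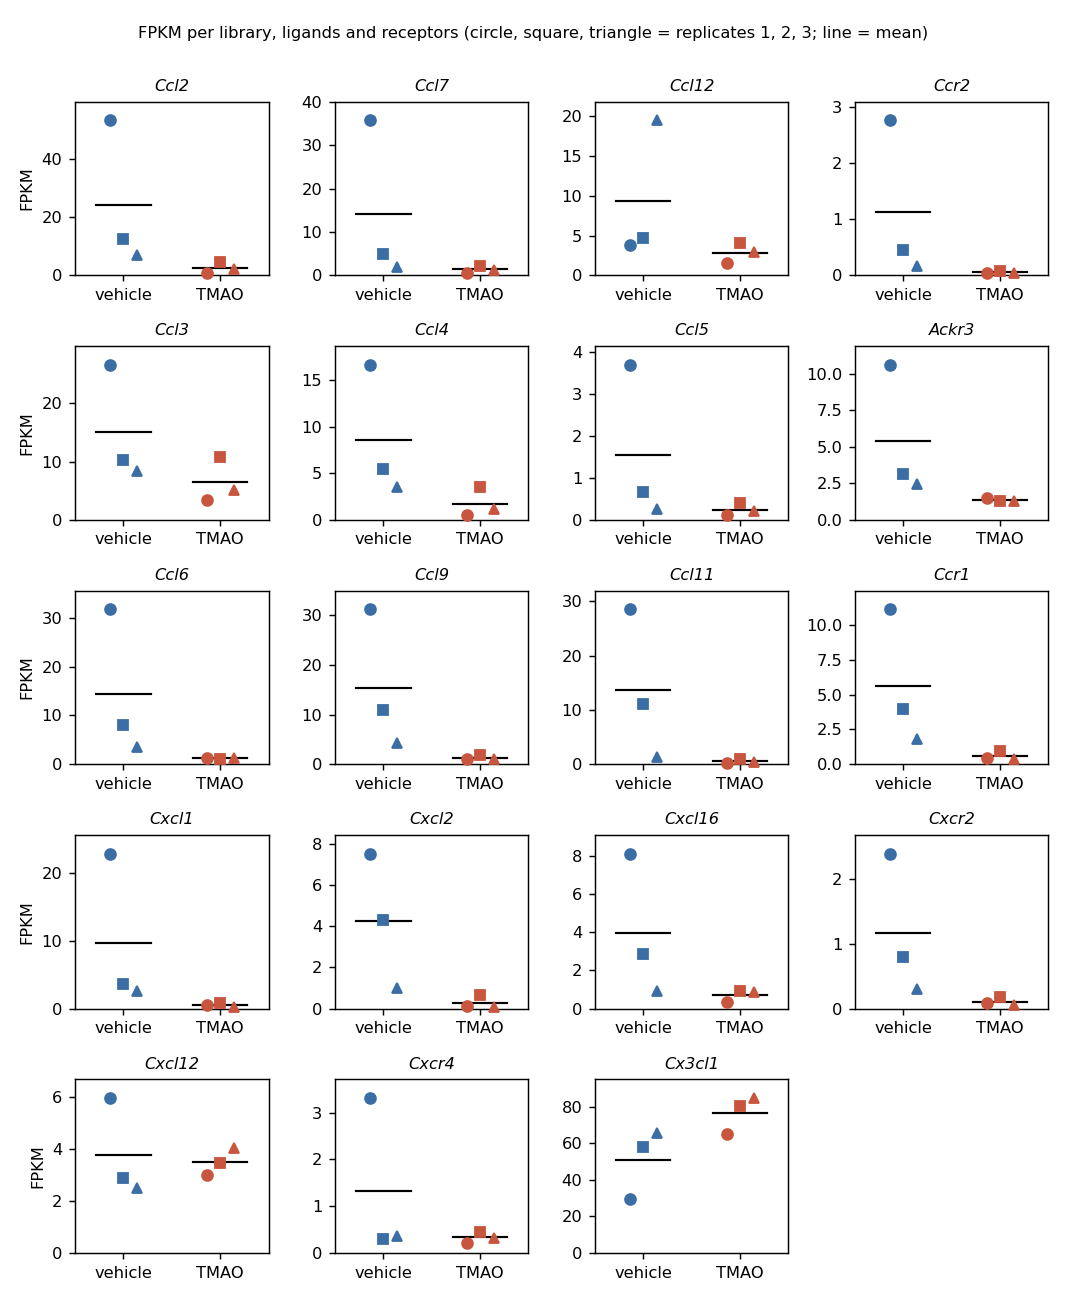
FPKM of 19 ligands and receptors in each library, with vehicle in blue and TMAO in red, replicates 1, 2 and 3 as circle, square and triangle, and the group mean as a line; every axis starts at 0. Vehicle replicate 1 sets the vehicle mean of most inflammatory ligands, Ccl12 is set by vehicle replicate 3, and Cx3cl1 is lowest in vehicle replicate 1.

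The other CXC ligands divided into even and uneven ones. Cxcl14, a constitutive chemokine, was among the most abundant members at 50.0, 34.4 and 36.7 FPKM in vehicle and at 31.0, 35.1 and 36.3 FPKM in TMAO. Its groups overlapped, and the log2 difference of -0.22 (SE 0.173) was -0.06 without vehicle replicate 1. Cxcl12, the ligand of Cxcr4 and Ackr3 that guides progenitors and neurons, stood at 5.95, 2.87 and 2.497 FPKM in vehicle and at 3.01, 3.46 and 4.02 FPKM in TMAO. Without vehicle replicate 1 every TMAO library lay above both vehicle libraries, and its log2 difference went from -0.02 (SE 0.277) to 0.28.

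Cxcl16, a membrane-bound ligand that is shed and acts on Cxcr6, stood at 8.14, 2.88 and 0.940 FPKM in vehicle and at 0.346, 0.936 and 0.890 FPKM in TMAO. The groups were separate only by the gap between 0.940 and 0.936 FPKM, and an exon of Zmynd15 on the other strand overlaps it. Cxcl13, a B cell attractant, reached 1.66 FPKM in vehicle replicate 1 and at most 0.123 FPKM in the other 5 libraries.

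Cx3cl1, the membrane-tethered chemokine of neurons, was the most abundant member in TMAO. It stood at 29.4, 58.1 and 65.5 FPKM in vehicle and at 64.8, 80.3 and 84.7 FPKM in TMAO. TMAO replicate 1 lay just under vehicle replicate 3, so the groups overlapped, and the log2 difference was 0.65 (SE 0.316, adjusted p = 0.407 by limma), or 0.30 when vehicle replicate 1 was left out. Neuron markers, summed, stood at 289, 757 and 812 FPKM in vehicle and at 891, 839 and 748 FPKM in TMAO. All of them but Gad1 were lowest in vehicle replicate 1, and their part in the value of Cx3cl1 was not tested. Its receptor Cx3cr1, which marks microglia, stood at 12.3, 6.70 and 10.2 FPKM in vehicle and at 8.62, 9.70 and 12.1 FPKM in TMAO, with overlap and a log2 difference of 0.08 (SE 0.231), or 0.25 without vehicle replicate 1.

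Summed over all members, chemokine RNA came to 513, 260 and 251 FPKM in vehicle and to 200, 230 and 223 FPKM in TMAO. Cx3cl1 made up 5.74%, 22.3% and 26.0% of that sum in vehicle and 32.4%, 34.9% and 38.1% in TMAO, while the 9 inflammatory CC ligands made up 33.4%, 19.3% and 16.8% in vehicle and 3.79%, 11.5% and 6.04% in TMAO. The libraries of each group did not overlap in either share. Both shares are taken of the same sum, so they are not separate results, and the FPKM of Cx3cl1 itself overlapped between the groups.

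**Figure D3:**
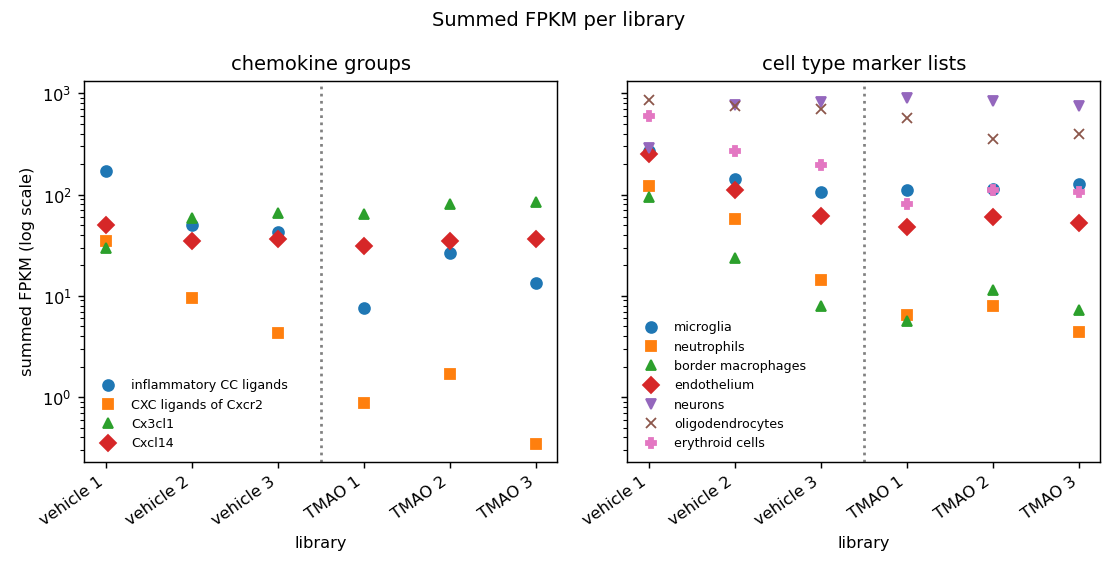
Summed FPKM on a log scale in each of the 6 libraries for 4 chemokine groups (left) and 7 cell type marker lists (right); the dotted line separates vehicle from TMAO. The ligands of Cxcr2 and the neutrophil markers are highest in vehicle replicate 1 and do not overlap between the groups. The same holds for the inflammatory CC ligands and for the oligodendrocyte, erythroid and, by a narrow gap, endothelial markers. Cx3cl1 and the neuron markers are lowest in vehicle replicate 1.

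The homeostatic CC ligands, which direct lymphocytes in lymphoid organs, skin and mucosa, included 7 tested members. A higher mean in TMAO was found in 5 of them, 4 of which are the near-identical Ccl21b and Ccl21d and the similar Ccl27a and Ccl27b, and in 46.8% of all tested genes. Of the 7, only Ccl21b and Ccl25 separated the groups. Ccl21b, a ligand of Ccr7, stood at 1.27, 2.38 and 7.42 FPKM in vehicle and at 10.5, 9.03 and 8.73 FPKM in TMAO. The groups did not overlap, as in 12.1% of tested genes in this direction, and the log2 difference was 1.37 (SE 0.465, adjusted p = 0.404 by limma), or 0.96 when vehicle replicate 1 was left out. Ccl21d stood at 0.802, 2.87 and 7.79 FPKM in vehicle and at 7.97, 6.86 and 6.95 FPKM in TMAO, with overlap and a log2 difference of 1.07 (SE 0.543), or 0.50 with vehicle replicate 1 left out. Ccl21a stayed at 0.0839, 0.915 and 0.931 FPKM in vehicle and at 1.63, 1.25 and 0.868 FPKM in TMAO. The coding sequences of Ccl21b and Ccl21d are 100% identical and Ccl21a is 99.5% identical to both, so the level of each copy is uncertain. The receptor of these ligands, Ccr7, was at 0.0726 to 0.677 FPKM.

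Ccl27a and Ccl27b, attractants of skin-homing T cells, were both lowest in vehicle replicate 1. Ccl27a stood at 4.99, 15.5 and 23.4 FPKM in vehicle and at 22.8, 21.4 and 23.6 FPKM in TMAO. Ccl27b stood at 0.651, 2.64 and 8.40 FPKM in vehicle and at 10.9, 6.29 and 10.3 FPKM in TMAO. Neither gene separated the groups, and the log2 differences of 0.82 (SE 0.496) and 1.37 (SE 0.619) were 0.24 and 0.77 without vehicle replicate 1. Their coding sequences are 94.2% identical over the 360 aligned bases, and exons of Ccl27a overlap the receptor gene Il11ra1 on the other strand, so their reads may be shared.

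Ccl25, a ligand of Ccr9 in thymus and gut, stood at 1.10, 1.22 and 1.22 FPKM in vehicle and at 1.43, 1.76 and 1.88 FPKM in TMAO. It had the smallest relative spread of any tested member within the vehicle group, and vehicle replicate 1 did not stand apart in it. The groups did not overlap, and the log2 difference of 0.30 (SE 0.122, adjusted p = 0.404 with limma) came to 0.27 without vehicle replicate 1. An exon of Elavl1 on the other strand overlaps it, and Elavl1 had a log2 difference of -0.18.

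Ccl28, a mucosal ligand of Ccr10, stood at 0.952, 1.62 and 1.64 FPKM in vehicle and at 1.14, 0.765 and 0.885 FPKM in TMAO, with overlap and a log2 difference of -0.31 (SE 0.169) that was -0.45 without vehicle replicate 1. Ccl17, a ligand of Ccr4, stood at 0.491, 2.40 and 2.84 FPKM in vehicle and at 3.12, 1.24 and 0.924 FPKM in TMAO, with a log2 difference of -0.05 (SE 0.452) that was -0.47 without vehicle replicate 1. Ccl22, which shares that receptor, stood at 1.19, 0.264 and 0.210 FPKM in vehicle and at 0.227, 0.152 and 0.0407 FPKM in TMAO. Vehicle replicate 1 was thus the lowest library for Ccl17 and the highest for Ccl22. Ccl1, Ccl19 and Ccl20 stayed at or under 0.0551, 0.359 and 0.0678 FPKM.

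**Figure D4:**
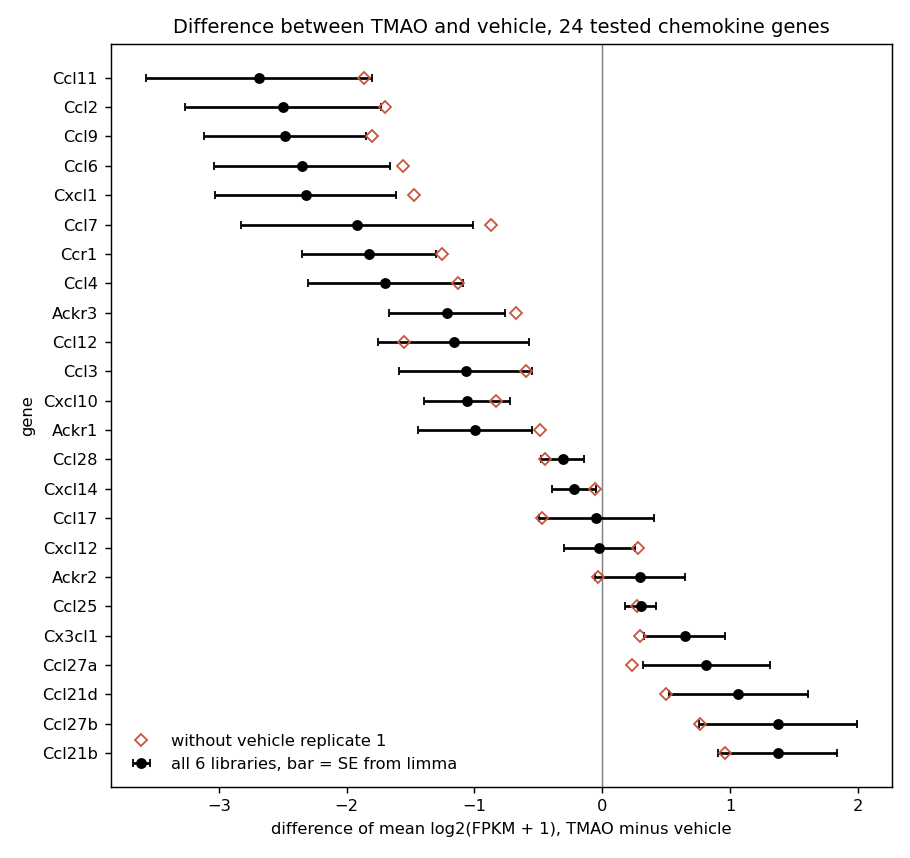
Difference of mean log2(FPKM + 1) between TMAO and vehicle for the 24 tested members, with all 6 libraries (black, bar = SE from limma, 3 libraries per group) and without vehicle replicate 1 (red diamonds). Most of the lower members move toward 0 without that library, Ccl12, Ccl17 and Ccl28 move away from it, and Cxcl12 and Ackr2 change side.

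The signalling receptors were scarce. Only Ccr1, a receptor for Ccl3, Ccl5, Ccl6 and Ccl9 on myeloid cells, reached the filter. It stood at 11.1, 3.96 and 1.80 FPKM in vehicle and at 0.454, 0.939 and 0.344 FPKM in TMAO. It passed through vehicle alone, so its groups had to be separate. The groups did not overlap, the vehicle mean was 9.73 times the TMAO mean or 4.97 times without vehicle replicate 1, and the log2 difference was -1.82 (SE 0.524, adjusted p = 0.404 by limma), or -1.26 when that library was left out.

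Ccr2, the monocyte receptor for Ccl2, stood at 2.76, 0.446 and 0.167 FPKM in vehicle and at 0.0484, 0.0694 and 0.0428 FPKM in TMAO. Cxcr2, the neutrophil receptor, stood at 2.39, 0.793 and 0.303 FPKM in vehicle and at 0.0823, 0.181 and 0.0610 FPKM in TMAO. The groups did not overlap for either of these receptors, with an exact two-sided permutation p of 0.1, the smallest possible, and of 0.162 once adjusted over the 13 members.

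Cxcr4, the receptor of Cxcl12, stood at 3.31 FPKM in vehicle replicate 1 and between 0.218 and 0.453 FPKM in the other 5 libraries, so its difference rests on that library. The vehicle mean was 4.01 times the TMAO mean with it and 1.01 times without it. Cxcr1 and Cxcr3 were above 0 in each vehicle library, at most 0.0698 and 0.148 FPKM, and listed at 0 in each TMAO library. The receptors Ccr3, Ccr6, Ccr7, Ccr8, Ccr9, Ccr10, Cxcr5, Cxcr6 and Xcr1 stayed at or under 0.677 FPKM. Over all 20 receptors 8 were lower in TMAO without overlap, Cxcr1 and Cxcr3 among them, against 10.5% of all genes above 0 in at least 1 library.

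Markers of myeloid cells that carry these receptors are given beside them. Monocyte markers without Ccr2 summed to 89.9, 22.8 and 14.9 FPKM in vehicle and to 9.91, 15.5 and 16.9 FPKM in TMAO, and border macrophage markers to 94.0, 23.6 and 8.02 FPKM and to 5.69, 11.5 and 7.19 FPKM. Both sums overlapped between the groups, and both were highest in vehicle replicate 1. The separation of Ccr1 was fixed by the filter, so it cannot be set against this overlap. Among the monocyte markers, Chil3 and Ms4a4c were lower in TMAO without overlap, as was Ccr2. Fn1, Plac8, Vcan and Ly6c2 overlapped. In TMAO the monocyte sum was highest in replicate 3, where Ccr1 and Ccr2 were lowest, but this came from Plac8. Plac8 stood at 1.31, 1.58 and 5.11 FPKM in TMAO replicates 1, 2 and 3. Of the other monocyte markers, Vcan was also highest in TMAO replicate 3. Fn1, Chil3, Ly6c2 and Ms4a4c were highest in TMAO replicate 2, as were Ccr1 and Ccr2. The part of these markers in the values of Ccr1 and Ccr2 was not tested.

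Of the 4 atypical receptors 3 reached the filter, against 1 of the 16 signalling receptors. Ackr1, which carries chemokines across venular endothelium and is also known on red cells, had the highest vehicle mean of any member, 53.5 FPKM, through vehicle replicate 1; without that library its mean was 32.6 FPKM, below Cx3cl1 at 61.8 and Cxcl14 at 35.6 FPKM. It stood at 95.3, 38.6 and 26.6 FPKM in vehicle and at 24.2, 22.7 and 21.1 FPKM in TMAO. The groups did not overlap, and the log2 difference of -0.998 (SE 0.445, adjusted p = 0.404 with limma) came to -0.48 without vehicle replicate 1. An exon of the neuronal adhesion gene Cadm3 on the same strand overlaps Ackr1, so their reads may be shared. Cadm3 stood at 25.4, 42.8 and 40.0 FPKM in vehicle and at 50.7, 44.4 and 47.2 FPKM in TMAO. Endothelial markers without Ackr1 summed to 252, 112 and 60.7 FPKM in vehicle and to 47.9, 60.1 and 51.8 FPKM in TMAO, and erythroid markers to 601, 267 and 195 FPKM and to 80.7, 110 and 105 FPKM. Neither sum overlapped between the groups, vehicle being higher, but the endothelial gap was narrow, between 60.7 and 60.1 FPKM. The endothelial markers did not all follow their sum. Slco1a4 ranged from 3.07 to 10.9 FPKM across the vehicle libraries and was higher in every TMAO library, at 13.8 to 16.6 FPKM. Tek, Flt1 and Kdr overlapped between the groups, while Cldn5, Cdh5 and Pecam1 were lower in TMAO without overlap. The part of both sums in the Ackr1 value was not tested.

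Ackr3, which scavenges Cxcl12, stood at 10.6, 3.13 and 2.42 FPKM in vehicle and at 1.52, 1.31 and 1.25 FPKM in TMAO. The groups did not overlap, and the log2 difference of -1.22 (SE 0.455, adjusted p = 0.404 with limma) came to -0.67 without vehicle replicate 1. Ackr2, which removes inflammatory CC ligands, stood at 0.176, 0.906 and 1.79 FPKM in vehicle and at 1.76, 1.43 and 0.719 FPKM in TMAO. Its log2 difference was 0.29 (SE 0.351) and -0.03 without vehicle replicate 1. Ackr4, a scavenger of homeostatic CC ligands, stayed at or under 0.131 FPKM.

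Many members lie in clusters, where some neighbours, such as Ccl6 and Ccl9, had similar levels and others did not. Coordinates are those of GRCm38, found by gene ID. On chromosome 11 from 82035571 to 82305690 the order is Ccl2, Ccl7, Ccl11, Ccl12, Ccl8 and Ccl1, of which the first 4 were tested and Ccl8 and Ccl1 stayed under 1 FPKM. Here 2 of the 6, Ccl2 and Ccl11, were lower in TMAO without overlap, Ccl11 through the filter. Nearby, from 83525778 to 83664683, lie Ccl5, Ccl9, Ccl6, Ccl3 and Ccl4, and 3 of these 5 were lower in TMAO without overlap, as were 17.5% of tested genes and 10.5% of all genes above 0. On chromosome 5 from 90759360 to 90905938 all 4 members, Cxcl5, Cxcl3, Cxcl1 and Cxcl2, were lower in TMAO without overlap. Also on chromosome 5, 0 of the 3 members Cxcl9, Cxcl10 and Cxcl11 were so. On chromosome 9 Ccr1 and Ccr2 were so, while their neighbours Ccr9, Cxcr6, Xcr1 and Ccr3 were at or under 0.0749 FPKM. On chromosome 8 from 94745590 to 94812036, Cx3cl1 stood at 29.4 to 84.7 FPKM between Ccl22 and Ccl17, whose highest values were 1.19 and 3.12 FPKM. Of these 3 members 0 were lower in TMAO without overlap.

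**Figure D5:**
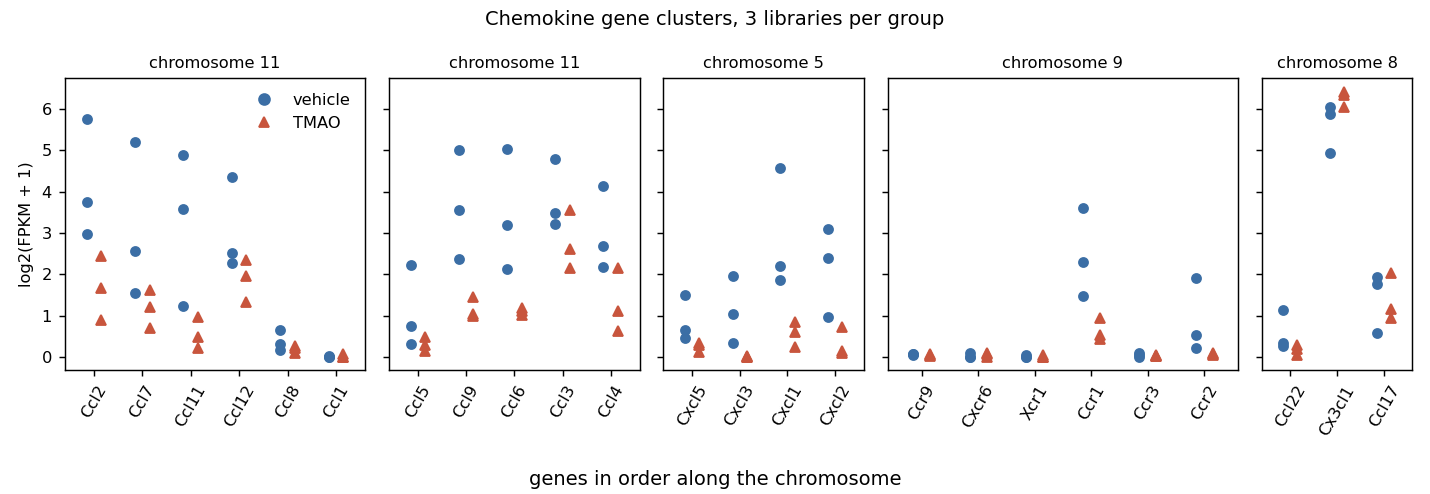
Log2(FPKM + 1) of neighbouring chemokine genes in their order along 4 chromosomes, with 3 vehicle libraries (circles) and 3 TMAO libraries (triangles) per gene. The 4 member ligands of Cxcr2 on chromosome 5 each separate the groups, while Ccr9, Cxcr6, Xcr1 and Ccr3 on chromosome 9 lie near 0.

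Over all 58 members 19 were lower in TMAO without overlap, where 10.5% of the 34778 genes above 0 were, and 2 were higher, where 7.69% were. In the authors' deposited table, whose mark needs a p under 0.05 and an absolute log2 fold of at least 1, 27 of 58 members were marked lower and 1 higher, against 5.06% and 1.32% of all 36758 genes. A q under 0.05 in the authors' deposited table was given to 14 members, all lower, against 0.911% of all genes that were lower with such a q. These were Ccl2, Ccl6, Ccl7, Ccl9, Ccl11, Ccl24, Cxcl1, Cxcl2, Cxcl3, Cxcl16, Ccr1, Ccr2, Cxcr2 and Ackr3. Both sets of calls start from the same FPKM, Ccl24, Cxcl2, Cxcl3, Cxcl16, Ccr2 and Cxcr2 lie below the filter used for limma, and the sources used here do not name the test behind the deposited values.

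Genes that carry the signal of chemokine receptors inside the cell were compared as a list. The list held 27 symbols, among them older names of Grk2 and Grk3, and 25 were found. Of these 20 were tested, 13 with a lower and 7 with a higher mean in TMAO, where 53.2% of all tested genes were lower. Their median log2 difference was -0.33, or -0.10 without vehicle replicate 1. None passed by limma after adjustment over all genes, and 1 of the 20 had an unadjusted p under 0.05 with a lower mean, a share below the 7.22% of all tested genes. That gene was the Src-family kinase Lyn, at 10.9, 5.12 and 3.45 FPKM in vehicle and at 2.40, 3.20 and 2.41 FPKM in TMAO (log2 difference -0.91, SE 0.360, adjusted p = 0.404 with limma; -0.51 when vehicle replicate 1 was left out). Groups did not overlap in 7 genes lower in TMAO, such as the G protein subunit gene Gnai3 (log2 difference -0.73, and -0.38 without vehicle replicate 1), and in 2 higher, the receptor kinase genes Grk3 (0.41 and 0.19) and Grk2 (0.24 and 0.050), against 17.5% and 12.1% of all tested genes. The kinase gene Ptk2b had the largest higher mean, with a log2 difference of 0.86 (0.22 without vehicle replicate 1) and overlapping groups. Among family genes outside the member rule, the platelet and border macrophage chemokine Pf4 stood at 29.5, 4.42 and 0.997 FPKM in vehicle and at 0.458, 0.875 and 0.348 FPKM in TMAO, and the platelet chemokine Ppbp at 6.31, 0.451 and 0.0801 FPKM in vehicle and at most 0.232 FPKM in TMAO.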

How the data were processed

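RNA of 3 vehicle and 3 TMAO libraries was sequenced. The authors deposited FPKM per gene and library, per the file headers. They also deposited a fold (ratio of TMAO to vehicle means), the log2 of that fold, and a p-value and q-value per gene. A second deposited table held identical values in all 10 columns compared. Reads were trimmed with cutadapt 1.9 and the build mm9 is named, per the submitters' processing notes. For the aligner, quantifier, annotation and test, nothing is stated in the sources used here. GENCODE M21 (GRCm38) holds 99.6% of the table's IDs and all 58 members, and the printed coordinates come from it by gene ID.

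The 14206 genes reaching 1 FPKM in 3 or more libraries were tested on log2(FPKM + 1), a scale that understates changes of low genes, with limma 3.58.1 in R 4.3.3 (trend and robust estimation, two-sided, Benjamini-Hochberg over all tested genes, threshold 0.05). The fit was tested on simulated data. Members below the filter that reached 1 FPKM in a library had exact permutation tests of log2(FPKM + 1). Counts were not recovered: 16.1% to 19.9% of low values in single-transcript genes lay within 2% of a whole step, so depth is unknown and precision is given by the spread between libraries. Total FPKM ran from 305701 to 326977. Values without vehicle replicate 1 come from the same model. Every tested member is named, with those at 1 FPKM or more in 1 library, and the rest are given by range; some items are not reported here, though counts, medians and sums include them. The members, role groups, marker lists and signalling list were chosen with earlier results of these data known. Alternatives covered the pseudocount, filter, normalization, variance trend, a replicate block and leaving out each library. Promoters are from RefSeq. Figures were drawn with matplotlib 3.10.9.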

Additional observations from a re-analysis of the deposited data

How the results depend on the processing

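Of 336 member values under 14 alternatives (pseudocounts of 0.1 and 0.5, no filter, a filter on the mean, quantile normalization, median scaling, no variance trend, a replicate block, and leaving out each library), 325 kept their direction and their side of the threshold. The 11 reversed values belonged to 3 members near 0. Ccl17 was at 0.0066 with a pseudocount of 0.1 and at 0.028 under median scaling, and lay between -0.47 and 0.21 when 1 library was left out. Cxcl12 was at 0.047 under quantile normalization and 0.050 under median scaling, and between -0.21 and 0.28 with 1 library left out. Ackr2 lay between -0.030 and 0.59 with 1 library left out. Called genes stayed at 0 under every alternative by limma, over all genes and over members, beside 1712 genes at an unadjusted p under 0.05 with all 6 libraries and 528 to 3365 with 1 library left out. Members with a lower mean numbered 15 to 17 of 24 under the other settings, 20 of 27 with a filter on the mean and 44 of 57 without a filter, where the median was -0.19 because members near 0 FPKM enter it. With 1 library left out the median ran from -1.10 to -0.54. Replicate numbers did not pair the libraries, since the deviations of same-numbered libraries correlated at -0.216, -0.0636 and -0.0153. A replicate block gave a smallest adjusted p of 0.493 by limma. It left 11 members at an unadjusted p under 0.05, as without it, while all genes at such a p went from 1712 to 1259 of 14206. Depth limits what can be said of the 21 members under 1 FPKM in every library.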
